A study of Mus musculus with 4 samples.

Results

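The GIMAP genes encode the GTPases of immunity-associated proteins, and the 8 mouse members (Gimap1, Gimap3, Gimap4, Gimap5, Gimap6, Gimap7, Gimap8 and Gimap9) were taken by their symbols from the 25239 gene symbols counted in every library. All 8 passed the filter on low counts, among 13919 genes tested, with 150 to 7600 counts per member and library. RNA-Seq was run on CD4+ T cells purified out of the lung tumors of C57BL/6 mice. By the labels, tumors were taken 18 to 22 days after intravenous injection of LLC-OVA cells (Lewis lung carcinoma cells that express ovalbumin). The study's methods give a somewhat earlier range of days for the experiment with CD4/ALK4-KO mice. The labels give 2 libraries as WT and 2 as CD4/ALK4-KO, and the comparison asks how tumor-infiltrating CD4+ T cells differ when ALK4, the activin type I receptor encoded by Acvr1b, is deleted in Cd4-expressing cells. CD4/ALK4-KO mice were CD4CreERT2+/-/Acvr1bfl/fl, in which a tamoxifen-inducible Cre under control of the Cd4 gene removes the floxed Acvr1b. The labels do not say whether WT mice received tamoxifen, how old the mice were, or whether each library came from a single mouse. The p-values below thus measure the spread between these libraries. The study's methods give male mice in a single age range for all experiments. For the experiment with CD4/ALK4-KO mice they give daily tamoxifen up to the day of tumor cell injection.

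GIMAP proteins are small GTPases made mainly by lymphocytes, and some are also made by endothelial cells. Most sit on intracellular membranes through a hydrophobic C-terminus, and they are known for their part in lymphocyte survival: loss of Gimap5 in rodents leads to a shortage of T cells, and loss of Gimap1 to a shortage of mature T and B cells. The genes lie side by side in a single cluster in mammals.

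The libraries held 11823908 to 13943237 counts, a difference in depth of 1.18-fold between the largest and the smallest. Acvr1b did not separate the labels, with 426 and 342 counts in WT replicates 1 and 2 and 322 and 445 in CD4/ALK4-KO replicates 1 and 2 (log2 fold change 0.16, SE 0.24, adjusted p = 0.657). Counts per gene do not show the floxed exons apart from the rest, so directions below are between libraries as labelled. Cd4, the coreceptor used to isolate the cells, rose from 51.7 ± 5.24 to 317 ± 13.9 CPM (read counts relative to library size, scaled by TMM, the trimmed mean of M values, with the SD and n = 2 per group), a log2 fold change of 2.62 (SE 0.23, adjusted p = 2.8e-08), with 0.44 on a scale set to T cell receptor complex genes. Levels of T cell genes thus differed between the groups, and in bulk libraries fewer cells of a type and less RNA per cell cannot be told apart. Values on 2 T cell scales stand beside the GIMAP results for that reason.

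In the GRCm38 assembly with GENCODE M21 annotation, the 8 genes lie on chromosome 6 between positions 48647234 and 48770851, a stretch of 123.6 kb, with 6 on the plus strand and 2 on the minus strand. All 8 are annotated as protein-coding. From left to right they are Gimap8 (chr6:48647234-48660875, plus), Gimap9 (chr6:48676129-48679114, plus), Gimap4 (chr6:48684549-48692060, plus), Gimap6 (chr6:48701582-48708225, minus), Gimap7 (chr6:48718621-48724636, plus), Gimap1 (chr6:48739054-48743795, plus), Gimap5 (chr6:48746197-48754210, plus) and Gimap3 (chr6:48764464-48770851, minus). Of the 3073 exon bases of Gimap1, 1305 are shared, mostly with Gimap1os on the opposite strand and the rest with Gm28053, a gene that spans several members and also shares 153 exon bases with Gimap5 and 81 with Gimap7. Neither Gimap1os nor Gm28053 is among the counted symbols, and the strand option of the counting is not given in the sources used here, so reads of Gimap1 and Gimap1os cannot be told apart. Gimap3 and Gimap5 are close copies, and 83 of the 2503 stretches of 75 bases (the read length) in Gimap3 transcripts, or 3.3%, also occur in Gimap5. Their counts are uncertain to that extent.

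The 250 bases before the annotated start are shown for the members with the greatest difference between the groups (Gimap3 and Gimap8) and the least (Gimap9 and Gimap7), so that these promoters can be read beside the values that follow. They are from RefSeq on GRCm38.p6, which held promoters for 8 of 8 members, at chr6:48770852-48771101 (minus strand) for Gimap3, chr6:48646984-48647233 (plus) for the first start of Gimap8, chr6:48675885-48676134 (plus) for Gimap9 and chr6:48718371-48718620 (plus) for Gimap7. Capitals mark motif matches on either strand.
Gimap3: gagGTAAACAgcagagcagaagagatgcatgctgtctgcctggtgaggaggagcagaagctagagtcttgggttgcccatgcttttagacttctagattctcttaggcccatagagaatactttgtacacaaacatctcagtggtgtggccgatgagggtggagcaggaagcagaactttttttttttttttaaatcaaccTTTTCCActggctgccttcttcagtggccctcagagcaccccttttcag
Gimap8: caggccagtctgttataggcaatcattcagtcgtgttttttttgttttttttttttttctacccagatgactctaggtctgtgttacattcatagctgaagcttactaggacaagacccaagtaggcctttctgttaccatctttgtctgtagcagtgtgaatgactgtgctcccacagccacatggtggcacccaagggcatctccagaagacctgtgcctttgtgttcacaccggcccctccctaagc
Gimap9: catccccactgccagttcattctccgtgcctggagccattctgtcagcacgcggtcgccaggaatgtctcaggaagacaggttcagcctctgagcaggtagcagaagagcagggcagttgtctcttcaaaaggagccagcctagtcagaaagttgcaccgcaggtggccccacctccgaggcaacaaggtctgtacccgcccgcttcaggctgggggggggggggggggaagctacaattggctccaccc
Gimap7: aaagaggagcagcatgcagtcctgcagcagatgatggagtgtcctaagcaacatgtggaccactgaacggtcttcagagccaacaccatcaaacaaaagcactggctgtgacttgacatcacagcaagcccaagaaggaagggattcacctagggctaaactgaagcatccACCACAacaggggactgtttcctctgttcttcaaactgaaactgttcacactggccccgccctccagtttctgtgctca
The Gimap3 promoter held a FOXO motif (GTAAACA) at position -247 from the start and an NFAT motif (TGGAAAA) at -49 on the opposite strand. The Gimap7 promoter held a RUNX motif (TGTGGT) at -79 on the opposite strand. Over the family, RUNX letters were found at 3 of 8 members (Gimap1, Gimap4 and Gimap7) against 14% of 32851 promoters of the same length. ETS letters (GGAAGT) were found at 2 (Gimap5 and Gimap6) against 19.7%, NFAT letters at 2 (Gimap1 and Gimap3) against 5.93%, FOXO letters at 1 against 3.17%, and the palindromic SMAD letters GTCTAGAC at 0 against 0.167%. ETS and NFAT letters overlap in GGAA. The GC content was 47.2% for Gimap3, 46.8% for Gimap8, 61.2% for Gimap9 and 50.8% for Gimap7, beside a median of 52.4% over all promoters. The motifs were chosen with the expression values known, and a match is only a description of these letters.

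On the TMM scale, all 8 members were higher in CD4/ALK4-KO (edgeR quasi-likelihood test, Benjamini-Hochberg adjusted p under 0.05 over all genes tested), whereas 5 of them lay below 0 on a scale set to T cell receptor complex genes and 6 on a scale set to T cell markers. The background was 17.4% of all genes tested called higher and 15.4% called lower. None of the 8 was lower, also at an unadjusted p under 0.05 or by DESeq2 (0 by each). Log2 fold changes ran from 1.60 for Gimap9 to 2.47 for Gimap3 and Gimap8, with a median of 2.04 against -0.0082 over all genes tested. The lowest CD4/ALK4-KO library exceeded the highest WT library for each of the 8. Such separation also occurred in genes that did not pass, such as Runx1 (adjusted p = 0.66), and its share over all genes was not counted. The 8 counts summed to 6412 and 6254 in WT and to 24310 and 23162 in CD4/ALK4-KO, which is 0.0462% and 0.0449% of all counts against 0.203% and 0.196%.

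**Figure D1:**
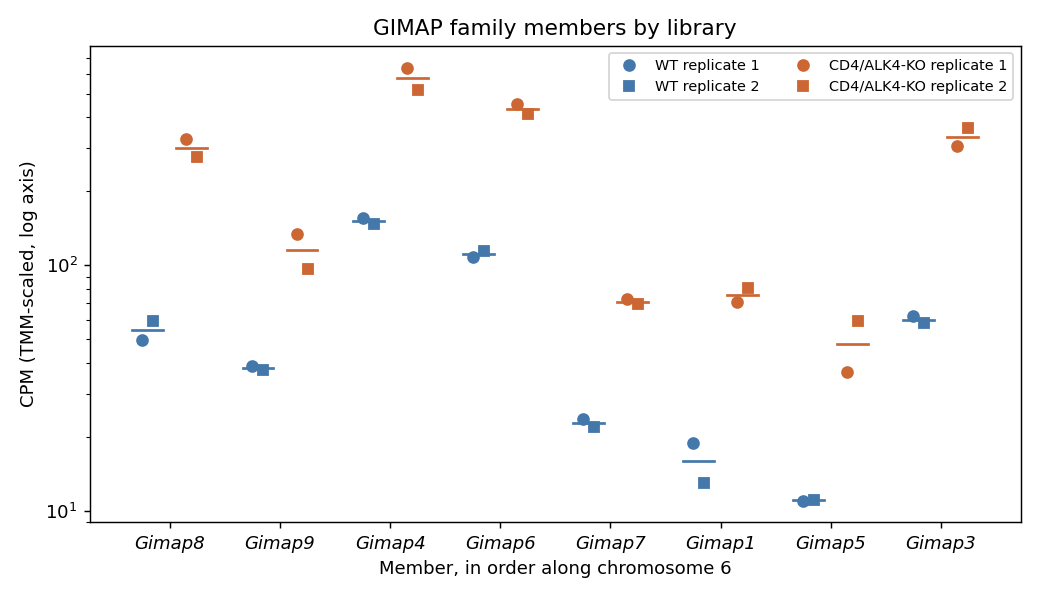
Level of each GIMAP gene in CPM (TMM-scaled, log axis) in the 4 libraries, with points for single libraries and short lines for the mean of each group. On this scale both CD4/ALK4-KO libraries lie above both WT libraries for all 8 genes, whereas 5 of the 8 differences fall below 0 on the T cell receptor complex scale and 6 on the T cell marker scale.

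Among the members tied to lymphocyte survival, Gimap5, a protein of lysosomal and endosomal membranes, was the lowest per length and the most uneven in the libraries labelled CD4/ALK4-KO. It stood at 11.02 and 11.09 CPM in WT and at 36.7 and 59.3 CPM in CD4/ALK4-KO, from 151, 150, 437 and 732 counts. The WT libraries lay together and the CD4/ALK4-KO libraries apart, with replicate 1 at 0.619 of replicate 2. The log2 fold change was 2.12 (SE 0.27, adjusted p = 3.04e-06). Its close copy Gimap3 stood at 62.1 and 58.2 CPM in WT and at 306 and 361 CPM in CD4/ALK4-KO, which gave a log2 fold change of 2.47 (5.54-fold, SE 0.23, adjusted p = 6.06e-08). Its CD4/ALK4-KO replicates lay closer together than those of Gimap5, with replicate 1 at 0.847 of replicate 2. Gimap1, which mature lymphocytes need for survival, stood at 18.9 and 12.9 CPM in WT and at 70.7 and 80.5 CPM in CD4/ALK4-KO. Here the WT libraries were the uneven pair, and the log2 fold change of 2.25 (4.75-fold, SE 0.24, adjusted p = 4.04e-07) ran from 1.99 without WT replicate 2 to 2.54 without WT replicate 1.

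Gimap4, which modulates T cell apoptosis and binds calmodulin, was the highest member per length in both groups. It stood at 155 and 147 CPM in WT and at 639 and 519 CPM in CD4/ALK4-KO, with a log2 fold change of 1.94 (3.83-fold, SE 0.22, adjusted p = 9.66e-07). Gimap6, which is linked to autophagy and binds the ATG8-like protein GABARAPL2, stood at 108 and 114 CPM in WT and at 456 and 414 CPM in CD4/ALK4-KO. Replicates of Gimap6 were close in both groups, and its log2 fold change of 1.97 (3.91-fold, SE 0.22, adjusted p = 7.41e-07) moved only between 1.92 and 2.03 when single libraries were left out.

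Gimap8, whose chain carries several GTPase domains, stood at 49.8 and 59.3 CPM in WT and at 328 and 276 CPM in CD4/ALK4-KO. Its log2 fold change of 2.47 (SE 0.23, adjusted p = 6.52e-08) equalled that of Gimap3 to 2 decimals. Gimap7, which hydrolyses GTP as a dimer, stood at 23.8 and 21.9 CPM in WT and at 72.8 and 69.6 CPM in CD4/ALK4-KO, the closest CD4/ALK4-KO replicates of the 8 genes. It rose by 1.64 on the log2 TMM scale (3.12-fold, SE 0.22, adjusted p = 7.27e-06). Gimap9 stood at 38.8 and 37.4 CPM in WT and at 134 and 96.4 CPM in CD4/ALK4-KO, which gave a log2 fold change of 1.60 (3.03-fold, SE 0.23, adjusted p = 1.27e-05). Of the 8 genes, 5 (Gimap4, Gimap6, Gimap7, Gimap8 and Gimap9) were higher in CD4/ALK4-KO replicate 1 than in replicate 2, and 3 (Gimap1, Gimap3 and Gimap5) were higher in replicate 2. Among all 13919 genes ordered by log2 fold change on the TMM scale, highest first, the members ranked from 199 (Gimap3) to 789 (Gimap9).

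Per length, as CPM per kilobase of merged exons, Gimap4 was the highest member in both groups and Gimap5 the lowest. The WT order was Gimap4 (82.4 ± 3.09, SD, n = 2), Gimap6 (31.8 ± 1.21), Gimap3 (23.3 ± 1.08), Gimap9 (23.2 ± 0.578), Gimap8 (14.7 ± 1.82), Gimap7 (9.82 ± 0.58), Gimap1 (5.18 ± 1.37) and Gimap5 (2.66 ± 0.012). Only Gimap3 and Gimap9 overlapped as neighbours in that order. The CD4/ALK4-KO order was Gimap4 (315 ± 45.9), Gimap3 (129 ± 15.2), Gimap6 (124 ± 8.45), Gimap8 (81.6 ± 9.86), Gimap9 (70.3 ± 16.4), Gimap7 (30.6 ± 0.992), Gimap1 (24.6 ± 2.25) and Gimap5 (11.6 ± 3.85). Gimap3 overlapped Gimap6 there, and Gimap8 overlapped Gimap9. The highest level exceeded the lowest 30.9-fold in WT and 27.2-fold in CD4/ALK4-KO.

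To compare the members with each other, each library was scaled to the summed counts of the 8 genes, so that a value is a share of the family. On that scale 1 of the 8, Gimap9, differed between the groups, while 0.517% of all genes tested were called higher and 90.7% lower. With so many genes called, the adjustment raises p very little, so adjusted p on this scale lie close to unadjusted p. Gimap9 made up 8.28% and 8.09% of the family counts in WT and 6.59% and 5.14% in CD4/ALK4-KO, a log2 fold change relative to the family of -0.48 (SE 0.22, adjusted p = 0.0454). That call lies near the threshold, with adjusted p from 0.0105 to 0.181 over the alternatives. It was lost without WT replicate 1, without WT replicate 2 and without CD4/ALK4-KO replicate 2 (adjusted p = 0.181, 0.152 and 0.179). Gimap7 went from 5.08% and 4.73% to 3.57% and 3.71%, a relative log2 fold change of -0.43 (SE 0.24, adjusted p = 0.092). Gimap3 (relative log2 fold change 0.40, SE 0.20, adjusted p = 0.0676) and Gimap8 (0.39, SE 0.20, adjusted p = 0.0728) had the highest values and did not pass the test, though Gimap3 passed without CD4/ALK4-KO replicate 1 (adjusted p = 0.0119) and Gimap8 without CD4/ALK4-KO replicate 2 (adjusted p = 0.0473). The other 4 lay between -0.14 (Gimap4) and 0.18 (Gimap1). Gimap4 and Gimap6, the largest parts, held 33.2% and 31.9%, and 23.1% and 24.7%, of the family in WT, and 31.3% and 27.7%, and 22.3% and 22.1%, in CD4/ALK4-KO.

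**Figure D2:**
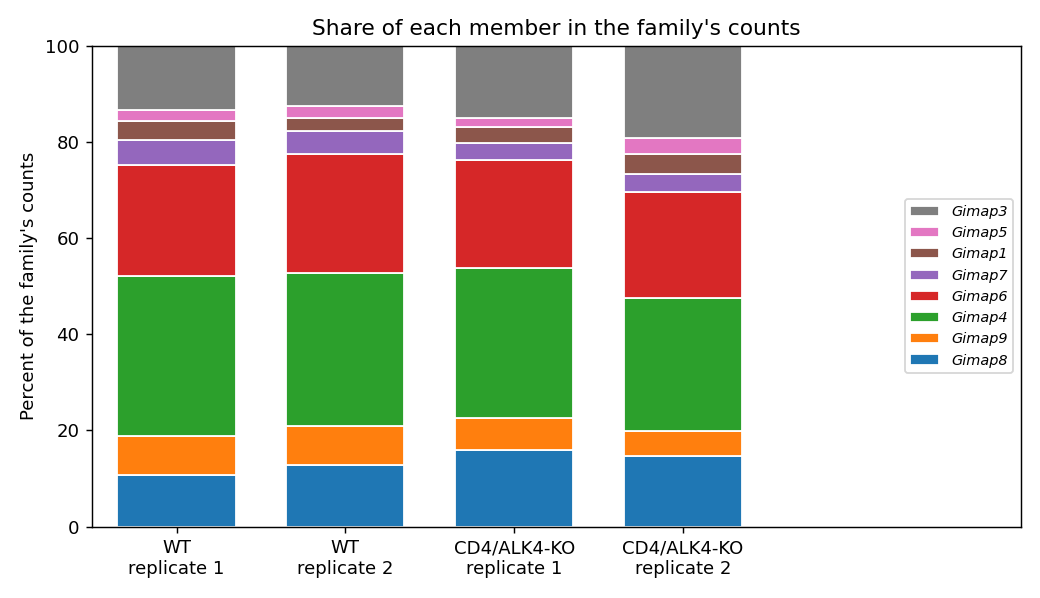
Share of the summed GIMAP counts, in percent, held by each of the 8 genes in each library. Gimap4 and Gimap6 hold the largest shares in all 4 libraries, and Gimap9 falls from 8.28% and 8.09% in WT to 6.59% and 5.14% in CD4/ALK4-KO.

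The same family sums were set beside those of T cell genes. The counts of the 8 members per count of 16 T cell markers (among them Cd3e, Cd5, Lck and Zap70) were 0.859 and 0.933 in WT and 0.729 and 0.693 in CD4/ALK4-KO. Per count of the 4 T cell receptor complex genes with a symbol in the files (Cd3d, Cd3e, Cd3g and Cd247) they were 2.42 and 2.55 in WT against 2.26 and 2.33 in CD4/ALK4-KO. On both ratios the CD4/ALK4-KO libraries lay below the WT libraries, at 0.794 and 0.924 of the WT mean.

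With each library scaled by its T cell receptor complex counts, the median of all genes tested lay at -2.19, and 1 of the 8 members passed the test, Gimap9, which was lower (log2 fold change -0.60, adjusted p = 0.0173). Gimap7 was at -0.54 (adjusted p = 0.052), Gimap4 at -0.26 (adjusted p = 0.254), Gimap6 at -0.22 (adjusted p = 0.327) and Gimap5 at -0.048 (adjusted p = 0.882). Gimap3 was at 0.29 (adjusted p = 0.206), Gimap8 at 0.27 (adjusted p = 0.245) and Gimap1 at 0.076 (adjusted p = 0.799). Scaled to the 16 T cell markers, with the median of all genes at -2.41, Gimap9 (-0.81, adjusted p = 0.00112) and Gimap7 (-0.76, adjusted p = 0.0037) were lower and the other 6 lay between -0.47 and 0.067 without passing. On each scale 0 members were higher (edgeR), 0 also at an unadjusted p under 0.05, and the share of all genes called lower was 92% and 94%. With such shares called, adjusted p on the T cell scales also lie close to unadjusted p. A p that misses the threshold does not show that a member followed T cell genes exactly.

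**Figure D3:**
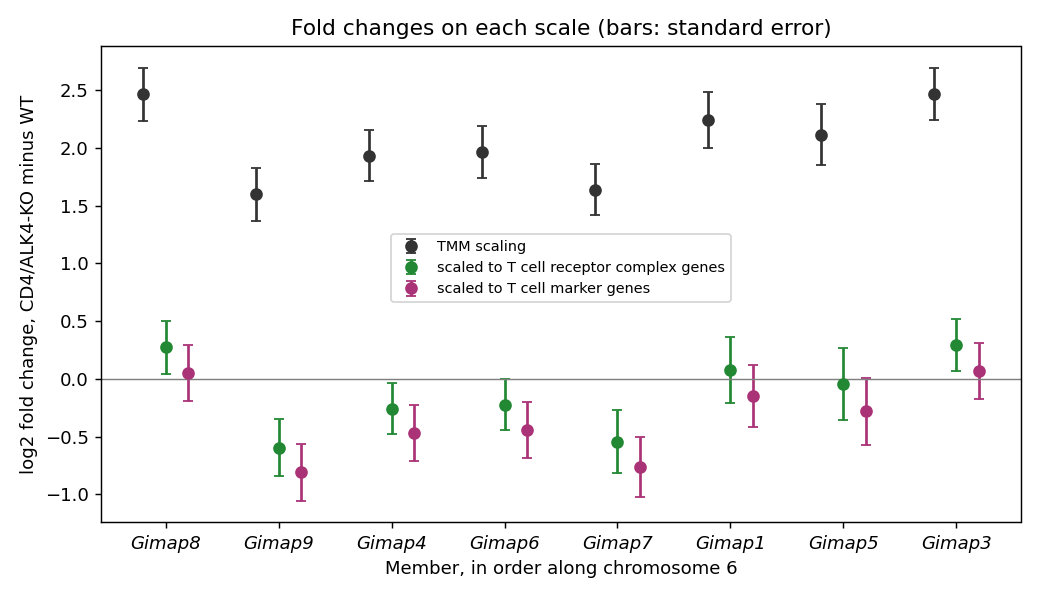
Log2 fold change of each GIMAP gene (CD4/ALK4-KO minus WT) on the TMM scale and on scales set to the 4 T cell receptor complex genes and the 16 T cell markers, with error bars of 1 SE. Values run from 1.60 to 2.47 on the TMM scale, from -0.60 to 0.29 on the T cell receptor complex scale and from -0.81 to 0.067 on the T cell marker scale.

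Markers of other cell types showed what else the isolated cells held. All 16 T cell markers were higher in CD4/ALK4-KO (median log2 fold change 2.42), and their summed level was 545 and 495 CPM in WT against 2800 and 2707 CPM in CD4/ALK4-KO. B cell markers such as Cd79a and Cd79b were higher for 12 of 12 (median 2.47), with sums of 94.1 and 80.0 CPM in WT and 274 and 542 CPM in CD4/ALK4-KO. NK cell markers were higher for 7 of the 7 tested (median 2.10), with sums of 72.1 and 124 CPM against 288 and 329 CPM. B and NK cells also make GIMAP proteins. The family counts per B cell marker count were 4.97, 5.78, 7.45 and 3.46, which overlapped between the groups. Endothelial markers, of a cell type that expresses some members, passed the test upward for 1 and downward for 2 of 10 tested (median -0.60), while their sums were 85.4 and 101 CPM in WT and 139 and 158 CPM in CD4/ALK4-KO. Pecam1 alone set the direction of that sum, at 22.6 and 42.6 CPM in WT and 106 and 108 CPM in CD4/ALK4-KO, and without it the sums of the other 11 genes were 62.8 and 58.3 CPM in WT and 33.2 and 50.2 CPM in CD4/ALK4-KO. Fibroblast markers (4 of 8 lower, sums of 6726 and 7335 CPM in WT and 4791 and 3974 CPM in CD4/ALK4-KO) and epithelial markers (4 of 7 lower and 2 higher) went the other way. Macrophage (2 of 10 higher, median -0.42) and neutrophil markers (2 of 8 higher, median 0.45) were called at shares near the 17.4% of all genes called higher, with 15.4% called lower. Dendritic cell markers were higher for 3 and lower for 1 of 7 (median 1.32), with sums of 86.5 and 86.3 CPM in WT and 264 and 116 CPM in CD4/ALK4-KO. No marker on these lists was at 0 in all 4 libraries. The part of these cell types in the GIMAP values was not tested.

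**Figure D4:**
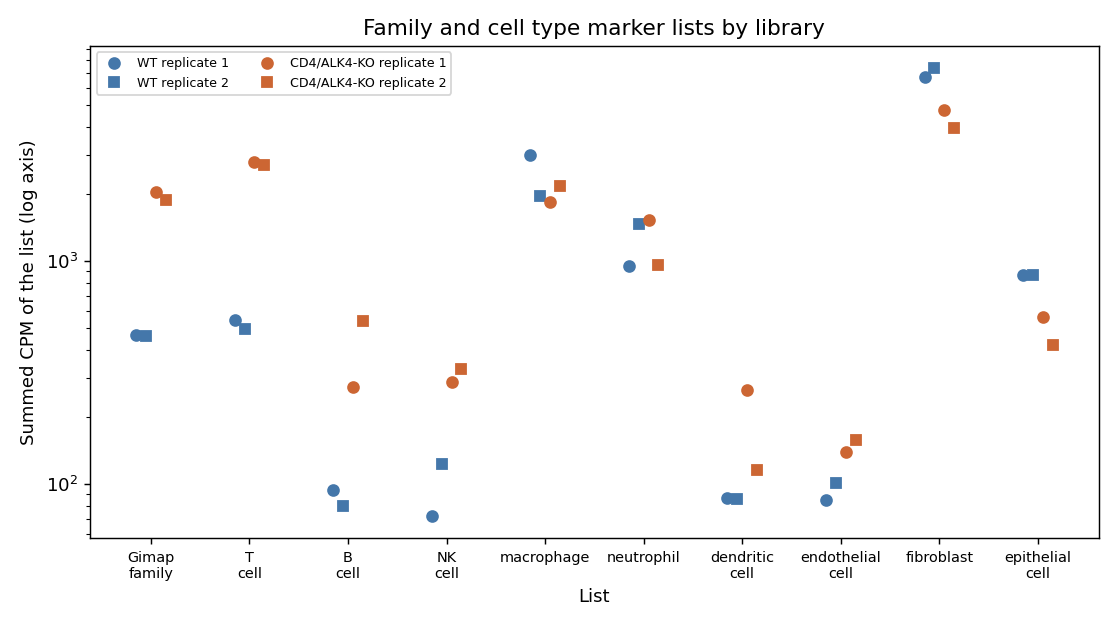
Summed CPM (TMM-scaled, log axis) of the 8 GIMAP genes and of the marker list of each cell type, with a point for each library. GIMAP, T cell, B cell, NK cell, dendritic cell and endothelial sums are higher in both CD4/ALK4-KO libraries, the endothelial sum through Pecam1 alone. Fibroblast and epithelial sums are lower.

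Genes beside the cluster on chromosome 6 gave a comparison at the same locus. Of 39 other annotated genes within 250 kb, 18 were counted and 11 passed the filter on low counts, and of these 0 were higher and 2 lower by edgeR (1 higher at an unadjusted p under 0.05, and 0 higher by DESeq2). Their median log2 fold change was -0.029, beside 2.04 for the 8 members. Over all genes tested 17.4% were called higher, and whether 0 of 11 falls short of that share was not tested. The 2 of 11 lower lie near the 15.4% of all genes tested that were called lower. They were Rarres2, which encodes the chemoattractant chemerin (-1.03, SE 0.22, adjusted p = 0.00113), and Repin1, a zinc finger gene (-1.55, SE 0.40, adjusted p = 0.00487). Neither passed without WT replicate 1 (adjusted p = 0.0664 and 0.216). Beyond the Gimap3 end, Tmem176b went from 464 ± 107 to 323 ± 46.2 CPM (-0.52, adjusted p = 0.0806), and its paired neighbour Tmem176a was at -0.32 (adjusted p = 0.295). The other values were 1.47 for AI854703 (adjusted p = 0.135, from 11, 3, 11 and 24 counts), 0.79 for Lrrc61, 0.76 for Aoc1, 0.32 for Zfp862-ps, 0.082 for Zfp775, -0.029 for Zfp467 and -0.31 for Atp6v0e2. On the T cell scales Rarres2 and Repin1 were also lower, as were most genes.

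**Figure D5:**
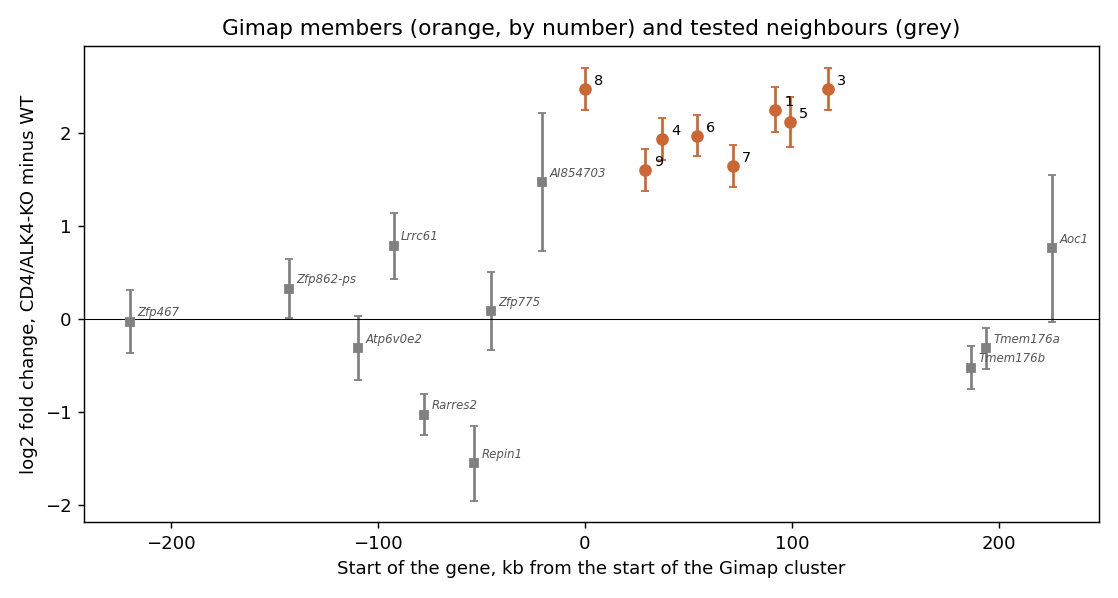
Log2 fold change (CD4/ALK4-KO minus WT, TMM scale, error bars of 1 SE) of the 8 GIMAP genes and the 11 tested neighbours by distance in kb from the start of the Gimap cluster. The 8 members lie between 1.60 and 2.47 and the neighbours between -1.55 and 1.47, while on the T cell receptor complex scale 5 of the 8 members fall below 0.

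Genes for proteins known to bind or act with GIMAP proteins moved in both directions. Of 17 tested, 3 were higher, 6 lower and 8 did not pass (median -0.34), against a background of 17.4% higher and 15.4% lower. Bcl2, the antiapoptotic partner of several members, went from 313 and 332 counts in WT to 1737 and 1632 in CD4/ALK4-KO (log2 fold change 2.55, SE 0.22, adjusted p = 3.28e-08). Prkcq, the T cell kinase PKC-theta, went from 242 and 339 to 1549 and 1866 counts (2.72, SE 0.24, adjusted p = 3.31e-08). Bcl2l11, the proapoptotic BIM, rose by 1.13 (SE 0.22, adjusted p = 0.000498) on the TMM scale and stood at -1.05 on the T cell receptor complex scale. On that scale Prkcq alone of the 3 stayed higher (0.53, adjusted p = 0.0418), with Bcl2 at 0.36 (adjusted p = 0.163). On the T cell marker scale Prkcq was at 0.30 and did not pass either (adjusted p = 0.231). Of the 17 partners, 15 were lower on each T cell scale, beside 92% and 94% of all genes. The 6 lower genes were Bcl2l1 (-0.66), Bad (-0.68), the chaperone gene Hspa8 (-0.66), Ctnnb1, which encodes beta-catenin (-0.55), the autophagy gene Gabarapl1 (-0.69) and the calmodulin gene Calm2 (-0.71), with adjusted p from 0.0125 to 0.0417. None of these 6 stayed below the threshold without WT replicate 1 or without WT replicate 2. Gabarapl2 (-0.24) and Mcl1 (0.35, adjusted p = 0.209) were among the 8 that did not pass.

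Genes of naive and quiescent lymphocytes rose for 14 of 17, and 3 did not pass (median 1.65), beside 17.4% of all genes tested called higher, while on the T cell receptor complex scale 0 were higher and 10 lower, beside 92% of all genes called lower there. None was lower on the TMM scale, also at an unadjusted p under 0.05 or by DESeq2 (0 by each). Ets1, a transcription factor of the ETS family, stood at 2.20 on the log2 scale (adjusted p = 1.35e-07). Btg1, an antiproliferative gene, was at 1.30 (adjusted p = 8.97e-05). Klf2, a transcription factor that controls lymphocyte egress, was at 0.094 (adjusted p = 0.795), and Runx1 at 0.15 (adjusted p = 0.66).

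The interferon-inducible GTPases of the IRG and GBP families, the other large group of immune GTPases, rose for 11 of 15 (median 0.79) beside 17.4% of all genes tested, while on the T cell receptor complex scale 0 were higher and 14 lower, near the 92% of all genes that were lower there. None was lower on the TMM scale, also at an unadjusted p under 0.05 or by DESeq2 (0 by each). Gbp7 (1.21, adjusted p = 0.000476), Ifi47 (1.04, adjusted p = 0.0011) and Igtp (0.79, adjusted p = 0.00693) were among them, and Gbp2 (0.50, adjusted p = 0.0702) and Iigp1 (0.37, adjusted p = 0.223) did not pass. The count of 11 fell to 4 without WT replicate 1 and to 7 without WT replicate 2. Igtp did not pass without WT replicate 1 or without WT replicate 2 (adjusted p = 0.164 and 0.131), Gbp7 did not without WT replicate 1 (adjusted p = 0.062), and Gbp2 passed without CD4/ALK4-KO replicate 2 (adjusted p = 0.00105).

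The genes whose pattern over the 4 libraries was most like the mean profile of the 8 members were sought in 10452 genes whose mean count was 100 or more, by the Euclidean distance between log2 CPM values centred on their mean. They were Prkch (distance 0.0400), the gene of a T cell protein kinase C, Slain1 (0.0407), the costimulatory receptor gene Icos (0.0502), Tnfsf11 (0.0607), which encodes RANKL, Slc4a8 (0.0667) and Cd2 (0.110), a T cell adhesion receptor gene. Their log2 fold changes were 2.03, 2.08, 2.01, 2.03, 2.09 and 2.14. Among the members themselves, Gimap6 (0.157) and Gimap4 (0.232) were nearest to the family profile and Gimap9 (0.572) the farthest, beyond Gimap8 (0.506), Gimap5 (0.501), Gimap3 (0.456), Gimap1 (0.423) and Gimap7 (0.412). Each gene is described here over 4 libraries only.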

How the data were processed

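RNA-Seq was made with TruSeq RNA v2 libraries and read as 75-base single ends on a NextSeq500. After alignment with HISAT2 against mm10, the authors ran htseq-count (intersection-nonempty) and deposited the unnormalized read counts of each library by gene symbol. Versions, annotation and strand option are not given in the sources used here. The members and gene lists were chosen with earlier results of these data known.

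Counts of 4 libraries (2 WT, 2 CD4/ALK4-KO) were fitted together with genotype as the only term in edgeR 4.0.16 (R 4.3.3), after filterByExpr and TMM scaling, with a robust quasi-likelihood test and Benjamini-Hochberg adjustment over 13919 genes. The common dispersion was 0.0357. SE is the absolute log2 fold change over the square root of F. Replicates differed by more than sampling noise (chi-square per degree of freedom 13.3 for WT and 24.0 for CD4/ALK4-KO). In the share fit, library size was the summed count of the 8 members. Exon lengths came from GENCODE M21, in which 24374 of 25239 symbols were found. In simulated data the fit recovered 44.4% of genes changed by a log2 fold change of 1 and 98% of those changed by 2. A gene that did not pass may thus still differ between the groups. Alternatives were DESeq2 1.42.0, other filters and scalings, removal of 125 immunoglobulin, haemoglobin, ribosomal and mitochondrial genes, T cell scales, a replicate block, and leaving out each library. Named genes were all members, the partners that passed, of the other lists the 3 most abundant that passed and the 2 that did not, tested neighbours, Cd4, Acvr1b and the 6 genes most like the family. Of the genes this rule names, 1 is not reported here.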

Additional observations from a re-analysis of the deposited data

How the results depend on the processing

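All 8 members kept their direction in the 12 alternatives other than the T cell scales (96 of 96 values, all from the same 4 libraries). Where both groups kept 2 libraries, the 8 also kept their call, with adjusted p of at most 3.61e-05. Where a fit left a group with 1 library, that library was assumed to vary like the others. On the T cell receptor complex scale, log2 fold changes were 0.076 (Gimap1), 0.29 (Gimap3), -0.26 (Gimap4), -0.048 (Gimap5), -0.22 (Gimap6), -0.54 (Gimap7), 0.27 (Gimap8) and -0.60 (Gimap9), median -0.14. On the T cell marker scale they were -0.15, 0.067, -0.47, -0.28, -0.44, -0.76, 0.054 and -0.81, median -0.36. Calls higher and lower on the T cell receptor complex scale were 0 and 1 for members and 1 and 15 for partners. There they were 0 and 10 for quiescence genes and 0 and 14 for interferon GTPases, beside 92% of all genes called lower. On the T cell marker scale they were 0 and 2 for members and 0 and 15 for partners. For quiescence genes they were 0 and 11 and for interferon GTPases 0 and 15, beside 94% of all genes called lower. Both scales turned the sign of Bcl2l11 (-1.05 and -1.27), Btg1 (-0.88 and -1.11), Klf2 (-2.07 and -2.30), Runx1 (-2.03 and -2.25), Ifi47 (-1.15 and -1.37), Igtp (-1.39 and -1.62), Gbp7 (-0.999 and -1.21), Gbp2 (-1.69 and -1.91), Iigp1 (-1.83 and -2.04), Zfp862-ps (-1.86 and -2.08), Lrrc61 (-1.38 and -1.61), Zfp775 (-2.09 and -2.31), AI854703 (-0.66 and -0.89), Aoc1 (-1.43 and -1.62), Acvr1b (-2.01 and -2.23), Prkch (-0.15 and -0.37), Slain1 (-0.099 and -0.32), Icos (-0.18 and -0.40), Tnfsf11 (-0.15 and -0.37), Slc4a8 (-0.097 and -0.32) and Cd2 (-0.043 and -0.26), and the second also that of Ets1 (-0.21). Leaving out 1 library gave 0 to 9 partners lower, 4 to 14 interferon GTPases higher and 0 to 2 members with a changed share, and turned signs within -0.17 to 0.41 (Klf2), -0.20 to 0.15 (Zfp467), -0.086 to 0.25 (Zfp775), -0.98 to 1.57 (Aoc1), -0.065 to 0.39 (Acvr1b) and, relative to the family, -0.059 to 0.47 (Gimap1) and -0.40 to 0.41 (Gimap5). Members with a changed share numbered 0 with no filter, with DESeq2 and with the replicate block.

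Same-numbered libraries did not deviate together (correlation -0.21), so the numbers were not taken as pairs. With the replicate block, members higher stayed at 8, partners lower fell to 0 and interferon GTPases higher to 7, with 1768 of all genes higher and 1444 lower. With the crossed pairing, added after seeing the data, these were 3118 and 3037, with 8 members higher and 4 with a changed share. The cause of these shifts was not tested. With 2 libraries a group, differences within the replicate spread could not be detected.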
